A study of Mus musculus with 9 samples.

Results

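The mast cell genes described here are the proteases Cpa3, Tpsb2, Cma1 and Mcpt4, the growth factor receptor Kit, the IgE receptor chains Fcer1a and Ms4a2, and the histamine-forming enzyme Hdc. They were found by symbol, and all 8 were among the 14905 genes of the deposited table. RNA was sequenced from macrophages of mouse visceral adipose tissue, sorted as F4/80+ CD11b+ cells. The 5 Nucb2-/- libraries (KO) and the 4 wild-type libraries (WT) share the C57BL/6 strain. The product of Nucb2, nucleobindin-2, binds calcium and is the precursor of nesfatin-1. All 9 columns come from 1 deposited table whose name carries the letters HFD, a usual abbreviation of high-fat diet, which the labels do not explain. The labels do not give the diet, age or sex of the mice, nor the kind of Nucb2 allele, nor whether separate mice gave the libraries. Tests therefore rest on the spread between libraries alone, part of which may be technical. The 8 genes were chosen with earlier results on the same KO and WT values known, in which several of them were low in KO. Their differences between KO and WT are therefore given as a description, with no p-value, and how many of them limma called is printed only beside the same share over all genes.

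Mast cells are granulated immune cells of connective tissue and mucosa, and they are found in adipose tissue. Their granules hold histamine and neutral proteases bound to serglycin proteoglycans, and they release them when antigen cross-links IgE on the high-affinity receptor FcεRI. That receptor has an alpha chain that binds IgE (Fcer1a), a beta chain that amplifies the signal (Ms4a2) and gamma chains (Fcer1g) that macrophages also use for their IgG receptors. Mast cells depend on stem cell factor, the ligand of Kit, and the transcription factors GATA2 and MITF take part in switching on their granule and receptor genes.

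Upstream sequences of the RefSeq promoter table (GRCm38.p6, the assembly that mm10 names) were found for 7 of the 8 genes, Tpsb2 being the one without an entry. The 250 bases before the start were searched on both strands for GATAA, the core of the GATA factor motif, and for CATGTG or CACGTG, forms of the E-box that MITF binds. No match overlapped another. GATAA was found in 5 of the 7 windows (Cpa3, Cma1, Mcpt4, Fcer1a and Ms4a2), and 22.6% of the 32851 windows in the table held it. That share was not matched for base composition. Among the 7 windows the part of G and C bases ranged from 38.8% in Ms4a2 to 70.8% in Kit. An E-box of those forms was found in 1 of the 7, that of Fcer1a, where 17.6% of all windows held one. The windows of Kit (the first of 2 entries in the table) and Hdc held neither. The start used is that of the RefSeq entry. By the GENCODE M21 positions given further below, Hdc begins upstream of its whole window and Kit begins within its window. The 3 protease windows and that of the IgE-binding chain are shown, as the genes of this set with a GATAA match whose KO and WT values did not overlap. Capitals mark the matches, and each line reads 5′ to 3′ on the gene's own strand, here the minus strand in each case.
Cpa3, chr3:20242182-20242431: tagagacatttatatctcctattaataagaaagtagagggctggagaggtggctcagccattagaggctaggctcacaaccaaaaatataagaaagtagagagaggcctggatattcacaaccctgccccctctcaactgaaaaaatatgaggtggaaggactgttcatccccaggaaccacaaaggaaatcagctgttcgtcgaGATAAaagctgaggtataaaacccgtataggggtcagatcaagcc
Cma1, chr14:55944676-55944925: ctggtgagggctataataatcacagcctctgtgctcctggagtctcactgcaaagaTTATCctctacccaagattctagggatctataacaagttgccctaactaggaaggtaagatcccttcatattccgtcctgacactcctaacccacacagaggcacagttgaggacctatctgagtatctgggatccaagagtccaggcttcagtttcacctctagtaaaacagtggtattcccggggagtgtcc
Mcpt4, chr14:56062311-56062560: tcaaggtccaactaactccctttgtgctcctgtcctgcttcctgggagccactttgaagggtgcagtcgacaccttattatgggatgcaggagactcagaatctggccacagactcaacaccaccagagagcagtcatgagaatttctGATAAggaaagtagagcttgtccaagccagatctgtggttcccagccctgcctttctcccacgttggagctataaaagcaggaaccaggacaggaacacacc
Fcer1a, chr1:173227230-173227479: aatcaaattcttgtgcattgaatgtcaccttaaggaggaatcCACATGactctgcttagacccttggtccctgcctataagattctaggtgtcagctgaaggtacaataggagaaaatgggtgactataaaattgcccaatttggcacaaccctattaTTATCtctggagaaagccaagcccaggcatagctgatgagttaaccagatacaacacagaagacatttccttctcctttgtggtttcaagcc
In these windows the GATAA match began 45 bases before the start in Cpa3 and 102 bases before it in Mcpt4. In Cma1 and Fcer1a the match lay on the opposite strand, and so is printed as TTATC. As printed, TTATC began 194 bases before the start in Cma1 and 92 bases before it in Fcer1a. A match is a run of letters and says nothing of whether a factor binds there.

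All 4 proteases were lower in each KO library than in any WT library. Values are normalized counts, the number of reads of a gene divided by 1 factor per library, with every value under 1 set to 1 in the deposited table. Cpa3, the mast cell carboxypeptidase, had 273, 359, 471, 186 and 117 normalized counts in KO replicates 1 to 5, against 1888, 2039.55, 835 and 1026 in WT replicates 1 to 4. It averaged 281 ± 140 in KO against 1447 ± 605 in WT (± is the SD over 5 KO and 4 WT libraries throughout), and the log2 difference of KO minus WT was -2.42 (SE 0.42). The highest KO library, replicate 3, stood below the lowest WT library, also replicate 3. Log2 differences here are on the scale of log2(normalized count + 1), which understates differences of low genes.

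Tpsb2, a tryptase stored as a heparin-bound tetramer, had 875, 1238, 895, 429.5 and 714 normalized counts in KO replicates 1 to 5, against 3930.5, 3539, 2076 and 2331 in WT replicates 1 to 4. KO replicate 4 was the lowest library and KO replicate 2 the highest of its group. The log2 difference was -1.87 (SE 0.28), and the ranges of the groups lay apart.

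Cma1, a chymase of connective tissue mast cells, had 455, 608, 704, 447 and 612 normalized counts in KO replicates 1 to 5, against 2059, 2326, 1869.9 and 1022 in WT replicates 1 to 4. The KO libraries were close to each other, with a coefficient of variation of 19.7% where counting error alone would give 3.98%, and WT replicate 4 stood lowest among the WT libraries. The log2 difference was -1.64 (SE 0.27). Mcpt4, a second chymase of connective tissue mast cells, had 33.6, 192, 215, 216 and 81.5 normalized counts in KO replicates 1 to 5, against 571, 669, 372 and 266 in WT replicates 1 to 4. Here KO replicates 1 and 5 were well below the other KO libraries, and the gap between KO and WT was narrow, with 216 as the highest KO value and 266 as the lowest WT value. The log2 difference was -1.87 (SE 0.61).

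**Figure D1:**
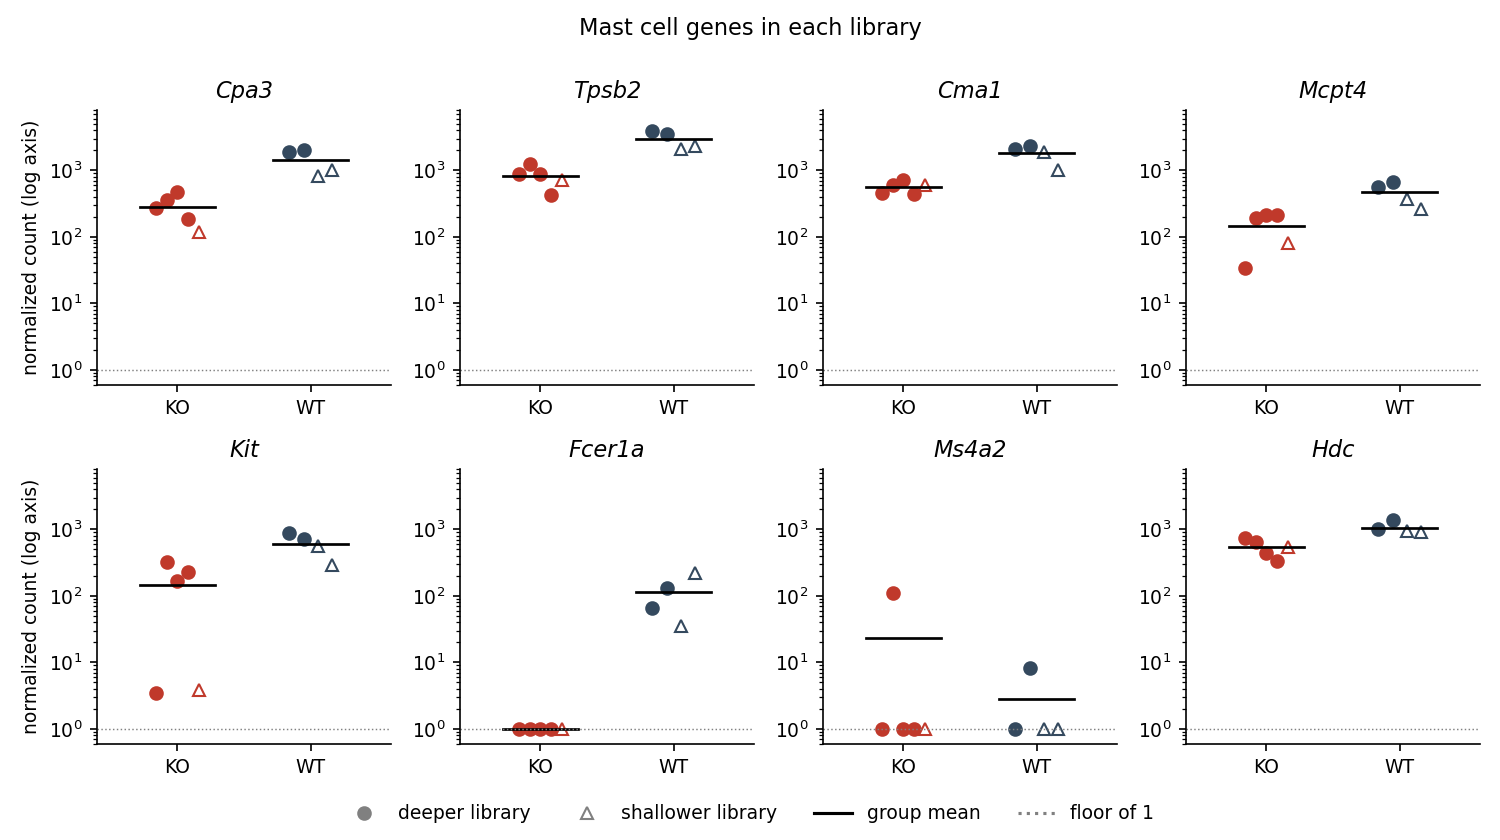
Normalized counts (log axis) of the 8 mast cell genes, KO at left and WT at right in each panel. Each point is 1 library, open triangles are the 3 shallower libraries and the horizontal line is the group mean. The proteases, Fcer1a and Hdc show KO below WT without overlap, Kit splits within KO, and Ms4a2 lies at the floor of 1 in 7 of 9 libraries.

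The receptors were less even than the proteases. Kit, the receptor tyrosine kinase for stem cell factor, had 3.45, 329, 170.05, 229 and 3.82 normalized counts in KO replicates 1 to 5, against 885, 711, 571 and 288 in WT replicates 1 to 4. The spacing of the values puts this at 4, 389, 207, 296 and 3 reads in KO, against 968, 771, 451 and 211 in WT. So 2 of the 5 KO libraries held almost no Kit, and KO replicate 2 stood above WT replicate 4, which left the ranges overlapping. The log2 difference was -3.54 (SE 1.21) over a split KO group, and it was -2.67 without KO replicate 1, -2.70 without KO replicate 5 and -4.23 without KO replicate 2.

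Fcer1a, the chain that binds IgE, was at the floor of 1 in each of the 5 KO libraries, against 66.7, 134, 35.4 and 224 in WT replicates 1 to 4. The floor holds 0 reads, and in the 6 libraries where 1 read is worth less than 1 normalized count it holds 1 read as well. The WT mean of 115 was 41.8 times the mean level of 3 reads per KO library, 2.75, so Fcer1a was at least 41.8-fold lower in KO, a bound that covers counting error only. Its order among WT libraries differed from that of the proteases, since WT replicate 4 was the highest for Fcer1a and the lowest or second lowest for Cpa3, Tpsb2, Cma1, Mcpt4 and Kit.

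Ms4a2, the signal-amplifying chain of the same receptor, ran the other way in 1 library. It had 110.9 normalized counts, or 131 reads, in KO replicate 2 and was at the floor in the other 4 KO libraries, against 8.30 in WT replicate 2 and the floor in the other 3 WT libraries. No fold is given, since both groups lie at the floor in most libraries. KO replicate 2 thus held Ms4a2 with Fcer1a at the floor, and WT replicates 1, 3 and 4 held Fcer1a with Ms4a2 at the floor. The shared chain Fcer1g averaged 96589.9 ± 5158 normalized counts in KO against 109260.0 ± 7335 in WT, with a log2 difference of -0.18 (SE 0.07; limma adjusted p = 0.39). Per kilobase of exon Fcer1g averaged 125011 normalized counts in WT, where Fcer1a averaged 115.

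Hdc, which makes histamine from histidine in mast cells, basophils and some other myeloid cells, was the member with the smallest difference among those whose ranges lay apart. It had 747, 654, 439 and 339 normalized counts in KO replicates 1 to 4 and 541 in KO replicate 5, against 1026, 1374, 944 and 923 in WT replicates 1 to 4. Its mean in KO was 51.0% of that in WT, and the log2 difference was -1.01 (SE 0.28). For Cpa3, Tpsb2, Cma1 and Mcpt4 that share was 19.4%, 28.0%, 31.1% and 31.5%.

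Over the 8 genes the median log2 difference was -1.87, beside 0.02 over all 14905 genes, and it was also -1.87 with Fcer1a at its bound and Ms4a2 left out. Of the 8, 6 had each KO library below each WT library (Cpa3, Tpsb2, Cma1, Mcpt4, Fcer1a and Hdc), where 1.6% of all genes did. In limma with Benjamini-Hochberg adjustment over all genes 4 were called lower at 0.05 (Cpa3, Tpsb2, Cma1 and Fcer1a), where 0.127% of all genes were called lower and 0.309% were called in either direction. Since the genes were picked from this contrast, nothing is read from those counts. The calls were fewer whichever library was left out. With 1 library left out, 0 of the 8 passed without KO replicate 1, 3, 4 or 5 or without WT replicate 2, 1 passed without KO replicate 2, WT replicate 1 or WT replicate 4, and 2 passed without WT replicate 3. Over the same 9 fits the log2 difference stayed between -2.65 and -2.14 for Cpa3, between -2.03 and -1.65 for Tpsb2 and between -1.90 and -1.50 for Cma1, and the count over the whole table was 5 to 38 in place of 46.

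Together the 8 genes made up a very small share of the RNA. Their share of a library, in normalized counts per 1000000, came to 35.6, 52.5, 44.0, 28.0 and 31.8 in KO replicates 1 to 5, against 152, 155, 96.3 and 85.8 in WT replicates 1 to 4. They averaged 38.4 ± 9.85 in KO against 122 ± 36.4 in WT, and the ranges lay apart. In such bulk libraries, fewer mast cells and less of these transcripts per mast cell cannot be told apart. The F4/80+ CD11b+ gate was set for macrophages, and how mast cell transcripts came to be in the sorted fraction was not tested.

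Levels of different genes can be set side by side only per length of exon. On that scale, in normalized counts per kilobase of exon (GENCODE M21), Tpsb2 averaged 521 ± 185 in KO and 1863 ± 567 in WT, and Cma1 averaged 519 ± 102 in KO and 1669 ± 517 in WT. Cpa3 came next with 185 ± 92.1 in KO and 954 ± 399 in WT, and then Mcpt4 with 133 ± 76.4 in KO and 424 ± 166 in WT. Those 4 proteases led in both groups on this scale. Hdc followed with 85.1 ± 25.5 in KO and 167 ± 32.8 in WT, Fcer1a was at the floor in KO and at 115 ± 83.5 in WT, and Kit averaged 16.5 ± 16.0 in KO and 68.9 ± 28.3 in WT. The first 5 genes kept this order in both groups. Among them the ranges of neighbours lay apart only for Cma1 and Cpa3 in KO and for Mcpt4 and Hdc in WT, and the other neighbouring pairs overlapped. In WT, Hdc overlapped Fcer1a, and Fcer1a overlapped Kit. The length used merged the annotated exons of all transcripts of a gene, at 6389 bases for Hdc and 8911 for Kit. It was 1594 bases for Tpsb2, whose longest coding transcript has 1289. The order of the genes depends on that choice of length, and other lengths were not tried.

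**Figure D2:**
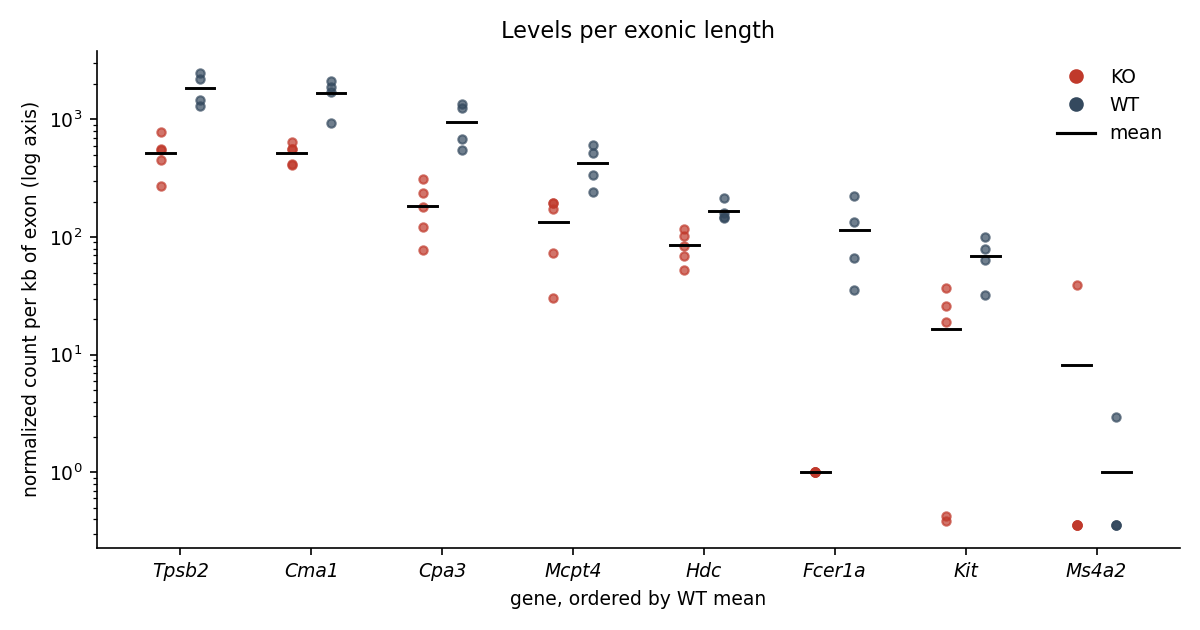
Normalized count per kilobase of exon (log axis) for the 8 genes, ordered by WT mean, with KO left of WT. Each point is 1 library and the line is the group mean. With the exons of all transcripts merged as length, the granule proteases lead in both groups, and Tpsb2 and Cma1 lie within each other's spread.

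A source that holds these transcripts in fixed proportions keeps their ratios the same in each library while their levels move together, so the ratios to Cpa3 were compared within libraries. The ratio of Tpsb2 to Cpa3 was 3.21, 3.45, 1.90, 2.31 and 6.10 in KO replicates 1 to 5, against 2.08, 1.73, 2.49 and 2.27 in WT replicates 1 to 4. The WT ratios were narrow, and KO replicate 5, whose Cpa3 was the lowest of all libraries (92 reads), had the highest ratio. The ratio of Hdc to Cpa3 lay between 0.934 and 4.62 in KO and between 0.543 and 1.13 in WT. The ratio of Kit to Cpa3 spanned 97.7-fold over the 9 libraries, between 0.0126 in KO replicate 1 and 1.23 in KO replicate 4, while in WT it stayed between 0.281 and 0.683. The ratio of Mcpt4 to Cpa3 lay between 0.123 and 1.16 in KO and between 0.259 and 0.445 in WT. The ratio of Cma1 to Cpa3 was 1.67, 1.69, 1.5, 2.40 and 5.23 in KO replicates 1 to 5, against 1.09, 1.14, 2.24 and 0.996 in WT replicates 1 to 4, so WT replicate 3 stood apart from the other WT libraries. In each of these ratios the WT libraries were closer to each other than the KO libraries, which also held fewer reads of these genes on average. Those ratios share Cpa3 as denominator, so the low Cpa3 of KO replicate 5 enters each one.

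**Figure D3:**
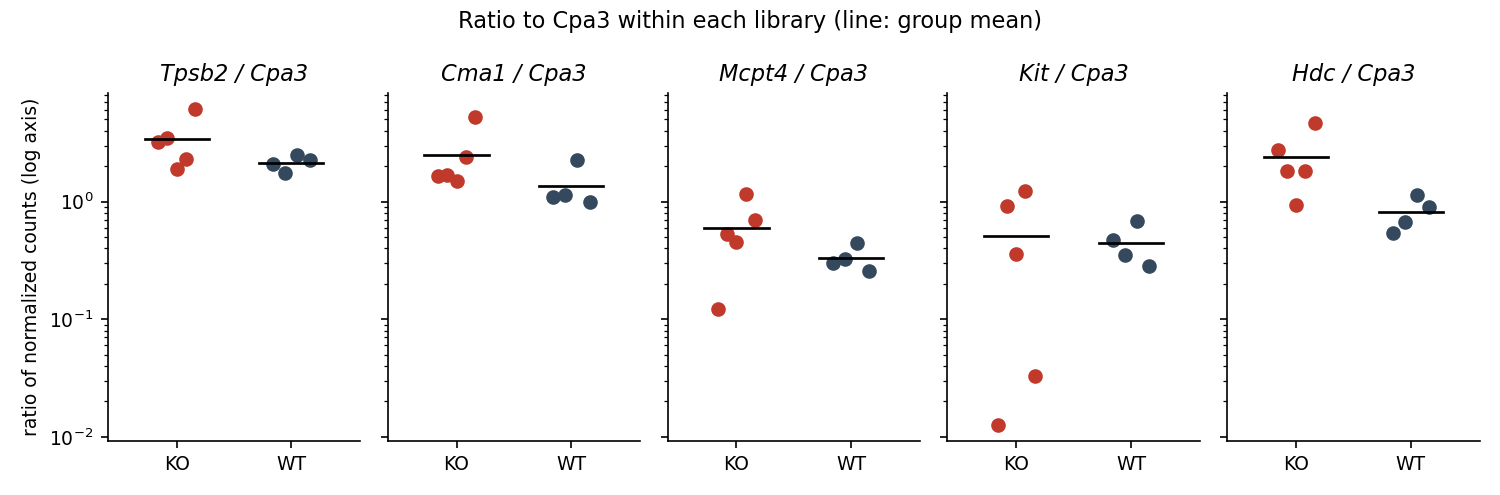
Ratio of 5 genes to Cpa3 within each library (log axis), KO left of WT, with 1 point per library and a line at the group mean. The WT ratios span less than the KO ratios for each gene, with Cma1 in WT replicate 3 above the other WT libraries, and Kit in KO replicates 1 and 5 lies far below the rest.

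Covariation was measured after removing the genotype, on the deviation of log2(normalized count + 1) from the mean of its own genotype, which does not use the KO to WT contrast. The 6 genes above the floor in at least 7 libraries entered (Cpa3, Tpsb2, Cma1, Mcpt4, Kit and Hdc), which gave 15 pairs over 9 libraries. Pearson's r was positive in 13 pairs and negative in 2, with a median of 0.43 and a range of -0.42 to 0.89. With an exact two-sided permutation of libraries within genotype, adjusted over the 15 pairs, 0 pairs passed 0.05 for Pearson's r and 0 for Spearman's rho; before adjustment, 2 pairs had an exact permutation p under 0.05 for Pearson's r. Spearman's rho had a median of 0.33.

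The closest pair was Mcpt4 and Kit, with r = 0.89 (exact permutation p = 0.0066, adjusted 0.099) and rho = 0.92 (exact permutation p = 0.014, adjusted 0.21). It was r = 0.88 without the 2 libraries farthest from the median of Mcpt4 (KO replicate 1 and WT replicate 4), and 0.92 in KO and 0.90 in WT taken alone. KO replicate 5 stayed in when those 2 libraries were left out, with Kit at -3.34 log2 units from its genotype mean. Both genes were low in KO replicates 1 and 5, the libraries in which Kit was nearly absent. Among KO replicates 2 to 4 their order differed, with Mcpt4 lowest and Kit highest in replicate 2. Cpa3 and Tpsb2 had r = 0.72 (exact permutation p = 0.045, adjusted 0.25), rho = 0.73 (exact permutation p = 0.047, adjusted 0.35), and r = 0.82 without the 2 libraries farthest in Cpa3. Tpsb2 and Hdc had r = 0.73 (exact permutation p = 0.05, adjusted 0.25), rho = 0.55 (exact permutation p = 0.17, adjusted 0.51), and r = 0.41 without the 2 farthest in Tpsb2, so that relation rests on those libraries. The pairs of Hdc with Mcpt4 and Kit were the negative ones over all libraries, at r = -0.42 and -0.41 (exact permutation p = 0.39 each, adjusted 0.54 each), with rho = -0.48 and -0.40 (exact permutation p = 0.28 and 0.37, adjusted 0.56 each). Without the 2 farthest libraries these became r = -0.10 and 0.51, so the negative sign of Kit with Hdc rests on KO replicates 1 and 5. In KO replicate 1, Hdc was the highest of its group while Mcpt4 was the lowest.

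All 15 pairs were positive among the 4 WT libraries, with a median r of 0.78, and 12 of 15 were positive among the 5 KO libraries, with a median r of 0.31; the difference between genotypes was not tested. In WT the deeper replicates 1 and 2 stood above the shallower replicates 3 and 4 for all 6 of these genes, as they did for 17.6% of all genes. With deviations taken from the mean of genotype and depth class the median r was 0.31, with 11 of 15 pairs positive. Then r for Mcpt4 and Kit was 0.98, and for Cpa3 and Kit 0.11 in place of 0.51. KO replicate 5, alone in its genotype and depth class, could add nothing to these values.

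**Figure D4:**
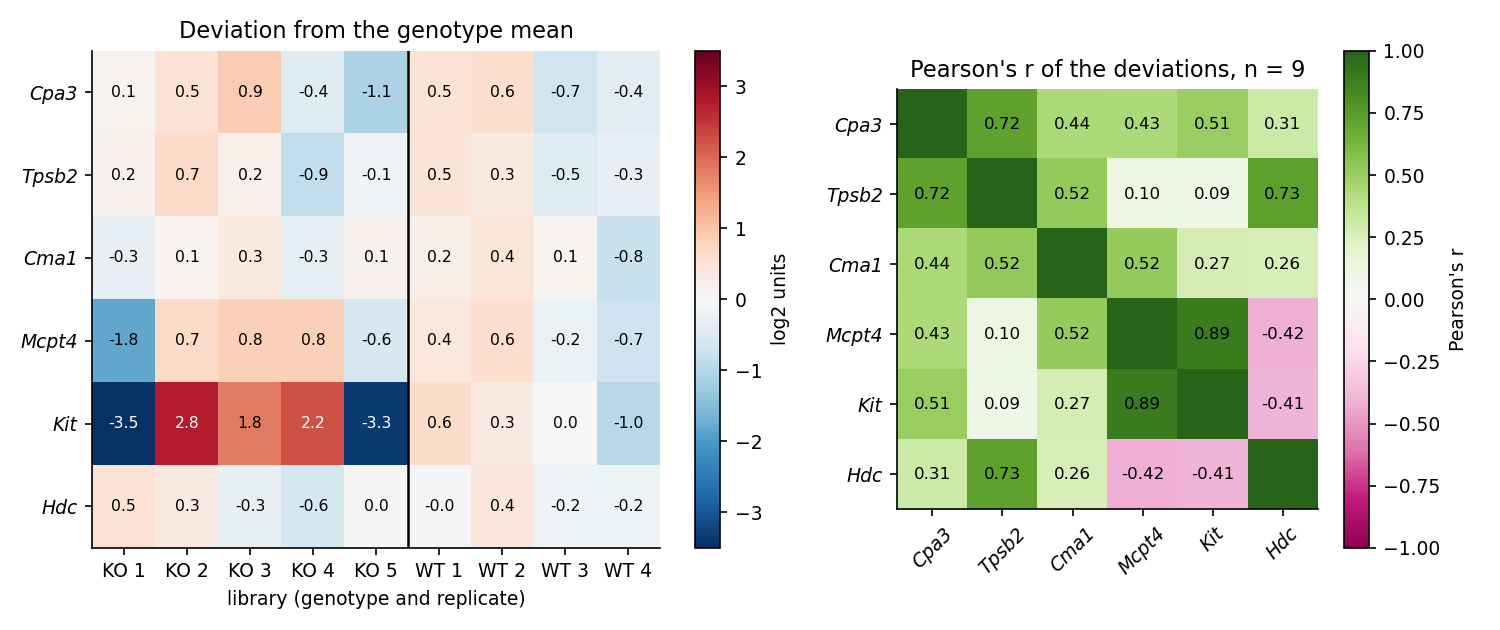
Left, the deviation of each gene from its genotype mean in log2 units, by library, with KO left of WT. Right, Pearson's r of these deviations over 9 libraries for each pair. Mcpt4 and Kit share their low values in KO replicates 1 and 5, and r of Hdc with each is negative over the 9 libraries, at -0.42 and -0.41, while among the WT libraries alone both are positive.

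Among 11807 genes ranked by r with Cpa3 on the same deviations, Tpsb2 was at rank 246, Kit at 1133, Cma1 at 1524, Mcpt4 at 1612 and Hdc at 2572. The 10 genes whose deviations were most like the mean standardized deviation of the 6 genes were Carns1, Akirin2, Bbs9, Pus3, Ip6k2, Huwe1, Rps21, Nup54, Dtx4 and Fem1a, with r between 0.92 and 0.97 over 9 libraries. The 5 most opposite were Ptpn1, Smpd1, Zmiz2, Ttc1 and Heyl, with r between -0.98 and -0.94. These are the extremes of 11802 genes with a mean of at least 50 and are given as a description. Among other listed mast cell genes, Sh2b3, the adaptor that restrains Kit signalling, ranked highest (rank 44, r = 0.85), and Il3ra, the alpha chain of the interleukin-3 receptor, lowest (rank 11794, r = -0.91). The tryptase Tpsab1 stood at rank 4815 with r = 0.11.

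The rest of the mast cell repertoire was covered by 67 further genes in 7 lists, of which 61 were measured, and their KO to WT differences were tested. In limma 0 of the 61 passed in either direction after adjustment over all genes, where 0.309% of all genes were called. Limma-voom on worked-out reads also called 0. With so small a share over all genes, 0 of 61 says little of this set, as does 0 in any of its lists. Before adjustment 13 of the 61 had a limma p under 0.05, or 21.3%, where 9.14% of all genes did. Some of the 13 were lower in KO, such as Gzmb and Lcp2, and others higher, such as Ltc4s and Aoc1. The lists were chosen with earlier results of these data known, so nothing is read from that share. The median log2 difference of the 61 was -0.11.

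Of 8 other mast cell protease genes 4 were measured, and 0 rose, 0 fell and 4 did not pass. Gzmb, the granzyme of cytotoxic lymphocytes that mast cells can also express, had 1, 2.54, 218, 1 and 82.7 normalized counts in KO replicates 1 to 5, against 695, 596, 299 and 210 in WT replicates 1 to 4 (limma adjusted p = 0.16). KO replicate 3 was above WT replicate 4, so the ranges overlapped. Tpsab1, a tryptase gene near Tpsb2, averaged 57.7 ± 55.8 in KO against 165 ± 102 in WT (limma adjusted p = 0.55). Tpsg1, a membrane-anchored tryptase, and Ctsg, cathepsin G of neutrophils and mast cells, were at or near the floor in most libraries.

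Among 10 genes of mast cell regulators and surface proteins, 0 passed. The receptor genes Mrgprb1 and Mrgprb2, the second of which encodes the receptor for basic secretagogues on connective tissue mast cells, were at the floor in most KO libraries. Mrgprb1 had 9.86 normalized counts in KO replicate 3 and the floor in the other 4 KO libraries, against 518, 66.4, 1 and 192 in WT replicates 1 to 4 (limma adjusted p = 0.28). Mrgprb2 was at the floor in all 5 KO libraries, against 24.7, 1, 86.0 and 1.36 in WT replicates 1 to 4 (limma adjusted p = 0.62). Gata2, a factor that maintains mast cells, averaged 93.4 ± 60.6 in KO against 149 ± 94.8 in WT (limma adjusted p = 0.80). Mitf, which macrophages use as well, averaged 4651 ± 975 in KO against 4389 ± 839 in WT (limma adjusted p = 0.91). Cd63, a granule membrane protein that many cells share, differed by -0.14 in log2 units (limma adjusted p = 0.66). The rest of the list did not move in 1 direction. Cd200r3 and Enpp3 differed by 0.49 and 0.05 in log2 units (limma adjusted p = 0.87 and 0.98). Il1rl1, Adora3 and Rab27b differed by -0.12, -0.63 and -1.01 (limma adjusted p = 0.88, 0.92 and 0.88). Adora3 and Rab27b were each at the floor in 2 KO libraries and 1 WT library, which weighs on their log2 values.

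Macrophages share many signalling genes with mast cells. Of 13 genes downstream of FcεRI 0 passed and the median log2 difference was -0.19; the adaptor Lcp2 differed by -0.31 and the kinase genes Syk and Lyn by -0.24 each (limma adjusted p = 0.22, 0.36 and 0.37). Of 10 measured genes of the Kit pathway and its growth factors 0 passed, with a median of 0.07. Kitl, which encodes stem cell factor, averaged 9683 ± 1307 normalized counts in KO against 10869.8 ± 2145 in WT (limma adjusted p = 0.76). Cblb, a ubiquitin ligase that dampens receptor signalling, averaged 1403 ± 214 in KO against 969.7 ± 538 in WT (limma adjusted p = 0.55), and the cytokine receptor genes Il4ra and Csf2rb2 differed by 0.29 and -0.15 in log2 units (limma adjusted p = 0.61 and 0.78). Of 8 granule matrix genes 0 passed, with a median of -0.04; Srgn, the proteoglycan core that holds the proteases, averaged 71616 ± 5299 in KO against 71780.0 ± 3624 in WT (limma adjusted p = 0.99). The membrane fusion and priming genes Vamp8, Stxbp2 and Unc13d differed by -0.25, -0.08 and -0.19, and the protease inhibitor gene Serpinb1a by 0.39 (limma adjusted p = 0.27, 0.84, 0.88 and 0.53).

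The histamine and lipid mediator genes held the only pair of further mast cell genes with separated ranges, both higher in KO, where 1.55% of all genes had each KO library above each WT library. Aoc1, the diamine oxidase that degrades histamine, had 57.7, 7.62, 43.5, 80.6 and 94.2 normalized counts in KO replicates 1 to 5, against the floor in all 4 WT libraries. Its KO mean of 56.7 was at least 16.9-fold higher than the mean level of 3 reads per WT library, a bound for counting error only (limma adjusted p = 0.095). Ltc4s, the leukotriene C4 synthase of mast cells and other myeloid cells, had 1875, 1267, 1484, 1827 and 1738 in KO replicates 1 to 5, against 911, 927, 474 and 952 in WT replicates 1 to 4 (log2 difference 1.04, SE 0.24, limma adjusted p = 0.093). Slc18a2, which loads histamine into granules, averaged 948 ± 390 in KO against 1034 ± 122 in WT, and Hnmt, the intracellular histamine methyltransferase, averaged 2933 ± 552 in KO against 2968 ± 740.1 in WT (limma adjusted p = 0.85 and 0.99). The amine oxidase gene Maoa and the histamine receptor gene Hrh2 differed by -0.37 and 1.46 in log2 units (limma adjusted p = 0.72 and 0.76). The means of Hrh2 ran the other way, at 174 ± 46.0 in KO against 229 ± 300 in WT. WT replicate 4 had 1.36 normalized counts of Hrh2, which weighs on the log2 value. The cyclooxygenase genes Ptgs2 and Ptgs1 differed by -0.49 and 0.45, and Alox5, which starts leukotriene synthesis, by 0.52 (limma adjusted p = 0.29, 0.46 and 0.33). In all, 0 of 8 histamine and amine genes and 0 of 8 lipid mediator genes passed.

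**Figure D5:**
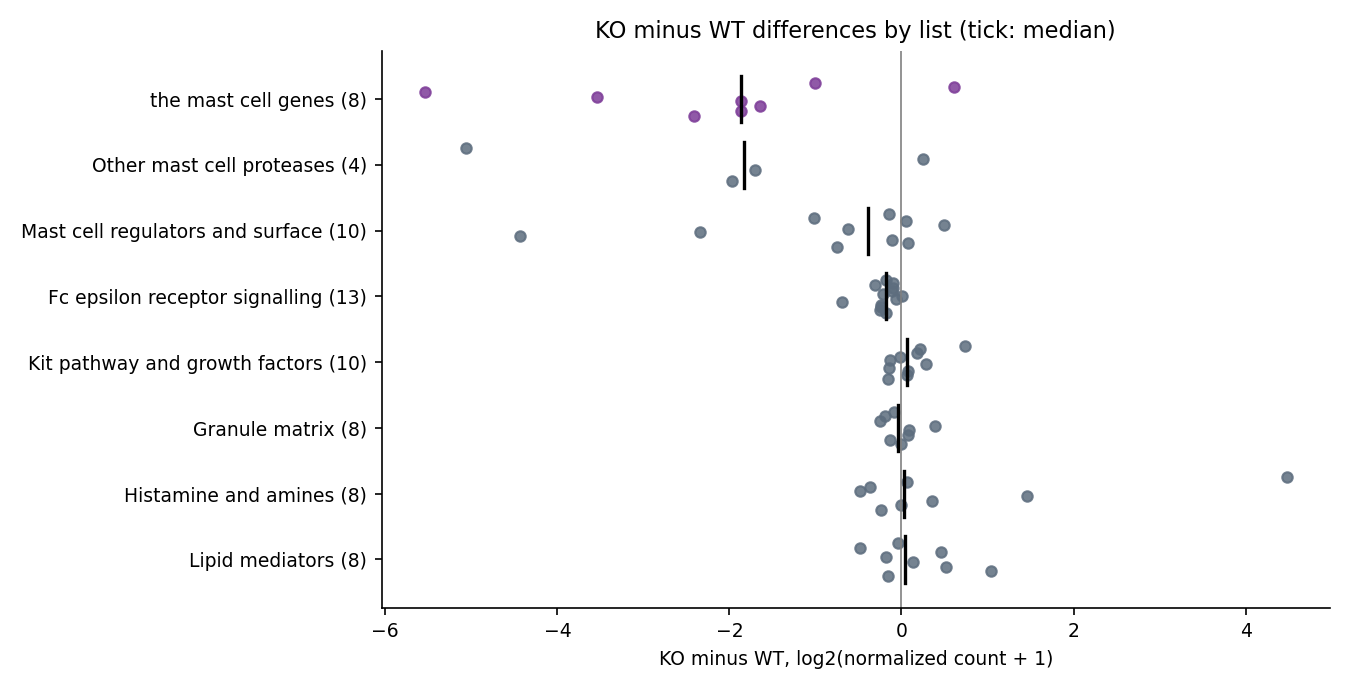
KO minus WT difference of log2(normalized count + 1) for each gene, by list, with a tick at the list's median and the number of measured genes in brackets. The 8 mast cell genes and the other mast cell proteases lie mostly below 0, with medians of -1.87 and -1.83, and the medians of the other lists lie between -0.39 and 0.07. Points of genes at the floor in some or all libraries of a group depend on the added 1. The median of -1.83 lies between Tpsab1 (-1.97) and Tpsg1 (-1.70), and Tpsg1 was at or near the floor in most libraries.

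Several of the proteases share a place in the genome. Positions are from GENCODE M21 on GRCm38. Cma1 (chromosome 14, 55941451 to 55944675, minus strand) and Mcpt4 (chromosome 14, 56059629 to 56062313, minus strand) lie in the chymase locus, where 15 protein-coding chymase, granzyme and cathepsin G genes span 321 kb. Of these 5 were measured. Gzmb, at the far end, is described above, and Gzmc was at the floor in all libraries but WT replicate 2, where it had 69.2 normalized counts. Tpsb2 (chromosome 17, 25366305 to 25369098, plus strand) lies in the tryptase locus with 5 other genes, of which Tpsab1, Tpsg1 and Prss34 were measured. Prss34, a protease of basophils, had 92.8 normalized counts in KO replicate 3 and the floor in the other 4 KO libraries, against 95.1, 35.1, 157 and 181 in WT replicates 1 to 4 (limma adjusted p = 0.18). These neighbours were picked after values were seen and get no summary test. The other 5 genes lie apart, Cpa3 on chromosome 3 (20215620 to 20242181, minus strand), Kit on chromosome 5 (75574916 to 75656722, plus strand) and Fcer1a on chromosome 1 (173221284 to 173227214, minus strand). Ms4a2 lies on chromosome 19 (11615523 to 11623719, minus strand) and Hdc on chromosome 2 (126593667 to 126619299, minus strand).

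How reads shared between copies were counted is not given in the sources used here. In the longest coding transcripts of GENCODE M21, Mcpt4 shared a run of 56 bases with Mcpt9 and of 46 with Mcpt1, so part of its count could belong to those copies or theirs to it. Cma1 and Mcpt4 shared at most 27 bases, and Tpsb2 and Tpsab1 at most 23, with 81.5% identity over their best aligned 401 bases.

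Other series-wide values bear on how far these levels can be read. Nucb2 itself was between 1165 and 1752 normalized counts in KO and between 3311 and 5233 in WT (exact two-sided permutation p = 0.016, the smallest that 5 against 4 libraries can give). Totals worked out from the step were 74937721 to 85200101 reads in 6 libraries and 51148956 to 55004978 in KO replicate 5 and WT replicates 3 and 4. Within the 6 deeper libraries the log2 differences of Cpa3, Tpsb2, Cma1, Mcpt4, Kit and Hdc were -2.68, -2.21, -2.01, -2.22, -3.19 and -1.19, and within the 3 shallower ones -2.97, -1.62, -1.17, -1.94, -6.40 and -0.79, where KO is a single library. The sort antigen genes were abundant in each library, with Adgre1 (F4/80) averaging 91199 ± 5643 in KO against 106114 ± 8809 in WT and Itgam (CD11b) averaging 23739 ± 1945 in KO against 20943 ± 1097 in WT.

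Markers of other cell types were summed as normalized counts in the same libraries. Beside the counts that passed, limma called 0.309% of all genes. Of 10 mesothelial genes 0 passed in limma, with a median log2 difference of 1.03 and a summed level of 27346 to 63186 in KO and 17193 to 33264 in WT. Of 10 endothelial genes 0 passed, with a median of 1.29 and a summed level of 4647 to 8638 in KO and 1986 to 4379 in WT, so its KO libraries all stood above its WT libraries. Of 9 fibroblast genes 1, the matrix metalloprotease gene Mmp2, fell (2925 ± 202 in KO against 4884 ± 1016 in WT, limma adjusted p = 0.048) and 0 rose, with a median of 0.23 and a summed level of 290712 to 450891 in KO and 204899.9 to 341689 in WT. Of 6 innate lymphoid and T cell genes 0 passed (median 0.22, summed level 7041 to 9124 in KO and 6353 to 9349 in WT), and of 6 neutrophil genes 0 passed (median 0.53, summed level 2546 to 4336 in KO and 1990.2 to 2983 in WT). The nearest relatives of mast cells were thinly covered. Of 6 basophil genes 3 were measured, without the defining Mcpt8, and 0 passed (median -0.18, summed level 1046 to 1700.4 in KO and 1185 to 1633 in WT), and of 9 eosinophil genes 5 were measured, without the defining Epx, and 0 passed (median 0.04, summed level 14662 to 17260 in KO and 12739 to 19701 in WT). Of 10 macrophage genes 0 passed, with a median of -0.12 and a summed level of 20247 to 21428 counts per 1000000 in KO and 20214 to 22312 counts per 1000000 in WT. C1qa and Fcgr1 had each KO library below each WT library, as 1.6% of all genes did, and 0 of the list had the reverse. Both differed by -0.50 in log2 units (limma adjusted p = 0.067 and 0.12). Lyz2 averaged 809546 normalized counts of a macrophage sum of 1397332 in KO. The basophil, eosinophil, lymphoid and neutrophil sums each rested mainly on 1 gene. In KO, Il6ra averaged 1102 of a basophil sum of 1213, and Ear2 15301 of an eosinophil sum of 16415. Il7r averaged 6276 of 8055 for innate lymphoid and T cells, and Csf3r 2646 of 3432 for neutrophils. The eosinophil gene Prg2 had 115, 21.2, 46.0, 1 and 1 in KO replicates 1 to 5, against the floor in all WT libraries (limma adjusted p = 0.56). The part of these other cells in the mast cell differences was not tested.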

How the data were processed

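Oligo-dT selected RNA of the sorted cells was made into strand-specific libraries, per the labels' protocols. CASAVA 1.8.2, HISAT, Partek, DESeq2 and mm10 are named, without roles, in the submitters' processing notes. Which annotation, counting and filters lay behind the table is not given in the sources used here. Signal, the deposited unit, is a read count over 1 factor per library with a floor of 1, as read from the values: in each library, 100% of those above the floor and under 10000 were whole multiples of 1 step, within 0.1 of a step.

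KO and WT (5 and 4 libraries) were compared with limma 3.58.1 in R 4.3.3 on log2(value + 1), with a mean-variance trend, a single term for genotype, and p-values adjusted by Benjamini-Hochberg over 14905 genes. The planned filter (1 or more in 4 or more libraries) removed 0 genes. Correlations used exact permutation under Python 3.11.15 with SciPy 1.17.1. Transcripts were aligned with Biopython 1.88 and figures drawn with matplotlib 3.10.9. The code was tested on simulated data. The members and lists were chosen with earlier results of these data known. Named genes were the 8 mast cell genes, up to 4 per mast cell list by smallest p, genes of any list that passed, and the 10 most like and 5 most opposite by deviation. Mitf, Srgn, Hnmt, Gzmc, Prss34, Adgre1, Itgam, Sh2b3, Il3ra and the rank of Tpsab1 were added after their values were seen. Added likewise were Il1rl1, Cd200r3, Enpp3, Adora3, Rab27b, C1qa, Fcgr1, Lyz2, Il6ra, Ear2, Prg2, Il7r and Csf3r. Alternatives were other pseudocounts, filters and scalings, array weights, a replicate block, depth class, the 6 deeper libraries, limma-voom and each library left out. Bounds and counting errors cover counting error only.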

Additional observations from a re-analysis of the deposited data

Results flagged for a closer look

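In 53 groups of 4 or 5 libraries checked for a single library far from the rest, 11 had one. Chance gives about 1 in 20 for values that vary freely, which does not apply to 6 of the 11, where all other libraries of the group lay at the floor of 1 and any value above it stands apart. These 6 are Ms4a2 in both groups, Tpsg1, Prss34 and Mrgprb1 in KO, and Ctsg in WT. For Ms4a2 this was KO replicate 2, at 110.9 normalized counts with the other 4 KO libraries at the floor, and WT replicate 2, at 8.30 with the other 3 WT libraries at the floor. The ratio of Cma1 to Cpa3 stood apart at 5.23 in KO replicate 5, with the others between 1.5 and 2.40, and at 2.24 in WT replicate 3, with the others between 0.996 and 1.14. Among the low protease genes, Tpsg1 stood apart at 1.69 in KO replicate 2 and at 55.7 in WT replicate 3, Ctsg at 43.5 in KO replicate 3 and at 43.6 in WT replicate 4, and Prss34 at 92.8 in KO replicate 3. Mrgprb1 stood apart at 9.86 in KO replicate 3. Ltc4s was lowest in WT replicate 3, at 474, with the other WT libraries between 911 and 952.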

How the results depend on the processing

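The number of genes called by limma over the whole table was 46, with 19 lower in KO. It was 0 with a replicate block, where 1098 had an unadjusted p under 0.05. That fit takes no difference from KO replicate 5, which has no WT partner, and leaving out KO replicate 5 alone gave 9. The count was 0 with just the 6 deeper libraries, where 1039 did. It was 5 to 38 with 1 library left out. Under the block and in the 6 deeper libraries alone, 0 of the 8 mast cell genes passed. A term for depth class in all 9 libraries left 33 of 14905 genes called, 13 of them lower in KO. Of the 8 mast cell genes, 3 were called lower in that fit and 4 in limma-voom. Since the 8 were picked from this contrast, nothing is read from these counts. Deviations of same-numbered KO and WT libraries correlated at -0.021 to 0.017 over all genes. That cannot exclude a tie between those libraries that acts on part of the genes, and the labels give only the number. Limma-voom called 32, with 20 lower in KO. The count of other mast cell genes called was 0 in each of the 20 alternatives run. The median log2 difference of the 8 genes lay between -2.22 and -1.72 in all 21 alternatives, and the single differences of Cpa3, Tpsb2, Cma1, Mcpt4, Kit and Hdc moved by less than their spread within groups. Kit lay between -4.26 and -2.67. The median correlation between the genes lay between 0.31 and 0.49 in its 17 alternatives. Leaving out Kit, and setting Fcer1a at its bound, were added after seeing the data. The planned edgeR test was not run, since the floor of 1 hides genes with 0 and 1 read. At this depth Fcer1a and Mrgprb2 were not detectable in KO, nor Ms4a2 in most libraries, which does not show that they are absent.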
